A study of Mus musculus with 4 samples.

Results

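The 4 mature arms of miR-143 and miR-145a were measured with Agilent mouse miRNA microarrays, in one colour, in the stromal-vascular fraction (SVF) of visceral white adipose tissue (visWAT). The members were chosen by name, as the non-control spots whose systematic name was mmu-miR-143-3p, mmu-miR-143-5p, mmu-miR-145a-5p or mmu-miR-145a-3p (the prefix mmu, for mouse, is left out hereafter), which gave 4 of the 1247 mouse miRNAs on the array. The SVF is the pellet of stromal, vascular and blood-derived cells that remains once floating adipocytes have been removed from collagenase-digested fat. The arrays fall into 2 groups of 2, vehicle and CL. The CL mice were given CL-316243 (CL), a drug that activates β3-adrenergic receptors, for 3 days at 1 mg/kg in PBS, a daily dose by the methods. The vehicle mice were given PBS alone. All mice were females of 8 weeks, C57BL/6 by the methods, although the strain labels of the 4 samples run from C57/BL6 to C57/BL9. The labels describe the injections as subcutaneous and the methods as intraperitoneal. The RNA on an array, labelled with Cy3, was a pool of 5 mice, so that the spread between arrays is a spread between pools, and nothing was measured per mouse or per cell type.

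The miR-143 and miR-145a genes are transcribed together and are best known in mural cells, the smooth muscle cells and pericytes that wrap blood vessels, where serum response factor and myocardin drive them. miR-145 holds smooth muscle cells in their contractile state by repressing KLF4 and KLF5, and miR-143 represses ELK1, so that loss of the pair favours a proliferating, synthetic cell. Fibroblasts and preadipocytes express the pair as well, and miR-143 has been linked to adipocyte differentiation through ERK5. The study compared SVF miRNAs after CL and vehicle treatment to find those that differ while white fat turns brown-like.

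By RefSeq, on the mouse build GRCm38.p6, the miRNA gene Mir145a lies on chromosome 18 from 61647825 to 61647894, and the miRNA gene Mir143 from 61649196 to 61649258, with 1301 bases between them. A paralogue, Mir145b, lies on the same chromosome from 69022199 to 69022273. The array carries 40 spots for each of the 4 arms. miR-143-3p is read by probes of 16 and 15 nucleotides, miR-143-5p by probes of 15 and 14, miR-145a-5p by probes of 14 and 13, with 20 spots per probe, and miR-145a-3p by 4 probes of 18 to 21 nucleotides, with 10 spots per probe.

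All 4 arrays lay on 1 slide, the vehicle arrays in its row 1 and the CL arrays in its row 2, so row and treatment cannot be told apart. Replicate 1 of either group lay in slide column 3 and replicate 2 in slide column 4. Mean negative control signals were 37.1 and 38.6 in column 3 against 31.7 and 32.8 in column 4. The scanner software detected 386 to 431 miRNAs per array, no spot was saturated, and the 425 miRNAs that it detected on both vehicle or both CL arrays were tested. After Benjamini-Hochberg adjustment, limma called 0 of the 425 at 0.05, a background of 0%. At an unadjusted p of 0.05, limma called 149 (35.1%), of which 69 (16.2%) were lower and 80 (18.8%) were higher after CL treatment. SAM called 60 and the methods' t-test 52 at that threshold, and both called 0 after adjustment. The 0 of SAM was fixed by the design, as its adjusted p from permuted arrays cannot fall below 0.333 here. With the slide column as a block, limma called 86 (20.2%) at an adjusted p of 0.05, with 40 lower (9.41%) and 46 higher (10.8%). The same fit called 36.7% at an unadjusted p of 0.05, with 18.1% lower and 18.6% higher. Precision is limited throughout by the 2 arrays in a group.

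Of the 4 arms, miR-143-3p and miR-145a-5p were detected on all 4 arrays and were tested, and both were lower after CL treatment. The CL mean was 59.5% of the vehicle mean for miR-145a-5p and 74.0% for miR-143-3p, on the scale of normalized signals averaged as log2. miR-143-5p was at the edge of detection, and miR-145a-3p was detected on no array. In a whole SVF with signals normalized between arrays, a smaller share of the cells that carry a miRNA and less of it per cell cannot be told apart.

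**Figure D1:**
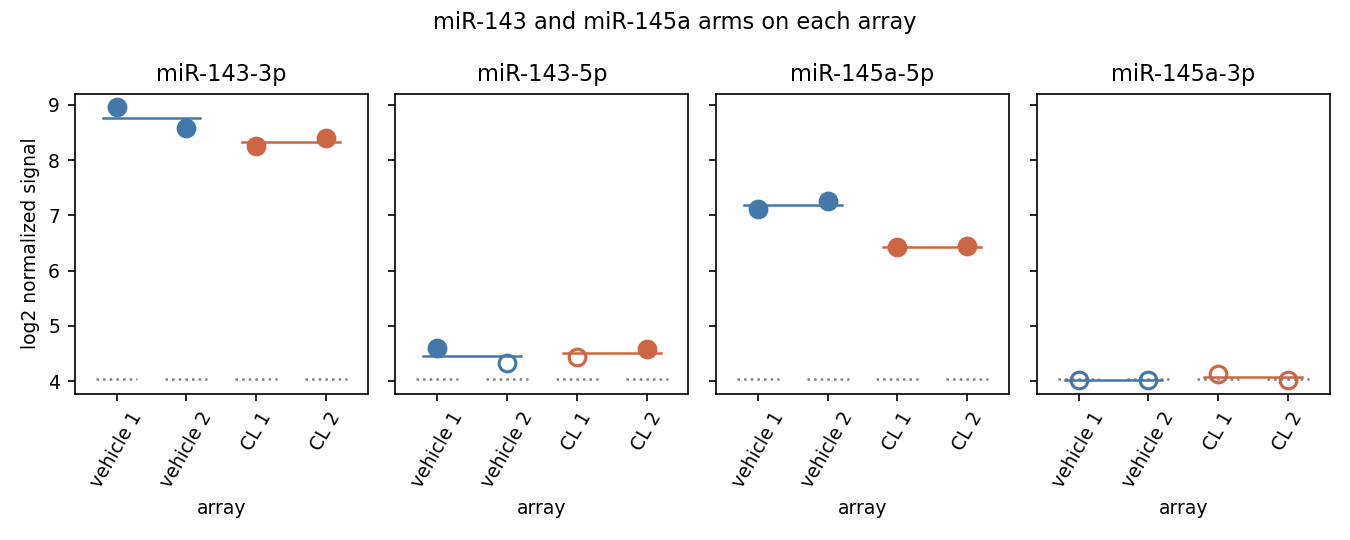
Log2 normalized signal (y axis) of the 4 arms on each array (x axis). Filled points were detected by the scanner software and open points were not, horizontal lines are group means, and dotted lines mark the median of all 1247 miRNAs on each array. miR-145a-5p sits at 7.11 and 7.26 in the vehicle and at 6.43 and 6.44 in the CL arrays, while miR-145a-3p lies at the dotted lines.

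miR-145a-5p, the arm that carries the known smooth muscle activity of miR-145, had a log2 normalized signal of 7.11 and 7.26 on vehicle 1 and 2, and of 6.43 and 6.44 on CL 1 and 2. The CL arrays were the 2 lowest, with 0.67 on the log2 scale between the lower vehicle array and the higher CL array, against 0.15 between the vehicle arrays. Groups were separate downwards for 34.8% of the tested miRNAs, upwards for 38.1% and in either direction for 72.9%. The group means were 7.18 ± 0.11 (SD, n = 2 arrays) for vehicle and 6.43 ± 0.01 (SD, n = 2) for CL, a log2 fold change of −0.75 (standard error 0.12, 95% confidence interval −1.08 to −0.42). In limma's moderated test the unadjusted p was 0.00262 and the adjusted p was 0.0917, which misses the threshold of 0.05. The difference was of similar size within each slide column, at −0.68 in column 3 and −0.82 in column 4. Blocking on the slide column gave an adjusted p of 0.0330 in limma, among the 9.41% called lower there. The block raised the standard error of miR-145a-5p to 0.17 and its unadjusted p in limma to 0.00396. Its lower adjusted p came with a rise from 0 to 86 calls among the 425 miRNAs. The call was lost, at an adjusted p of 0.0501, with the same block after quantile normalization on the log2 scale, where limma called 40 in all. The exact permutation test gave p = 0.333 (two-sided), the smallest p that 2 arrays against 2 allow.

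The raw spots of miR-145a-5p showed the same order before any normalization between arrays. On its probe of 14 nucleotides, the median spot signal was 198.8 and 200.2 for vehicle 1 and 2, and 116.6 and 121.5 for CL 1 and 2, where negative controls averaged 31.7 to 38.6. On its probe of 13 nucleotides, the medians were 137.0 and 139.0 for vehicle against 85.1 and 86.8 for CL. All 40 spots were well above background on every array. In all 40 spots, both CL signals lay below both vehicle signals. Spots of an array are repeats of 1 hybridization and not replicates of the treatment, and they share the row of the slide with their group.

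**Figure D2:**
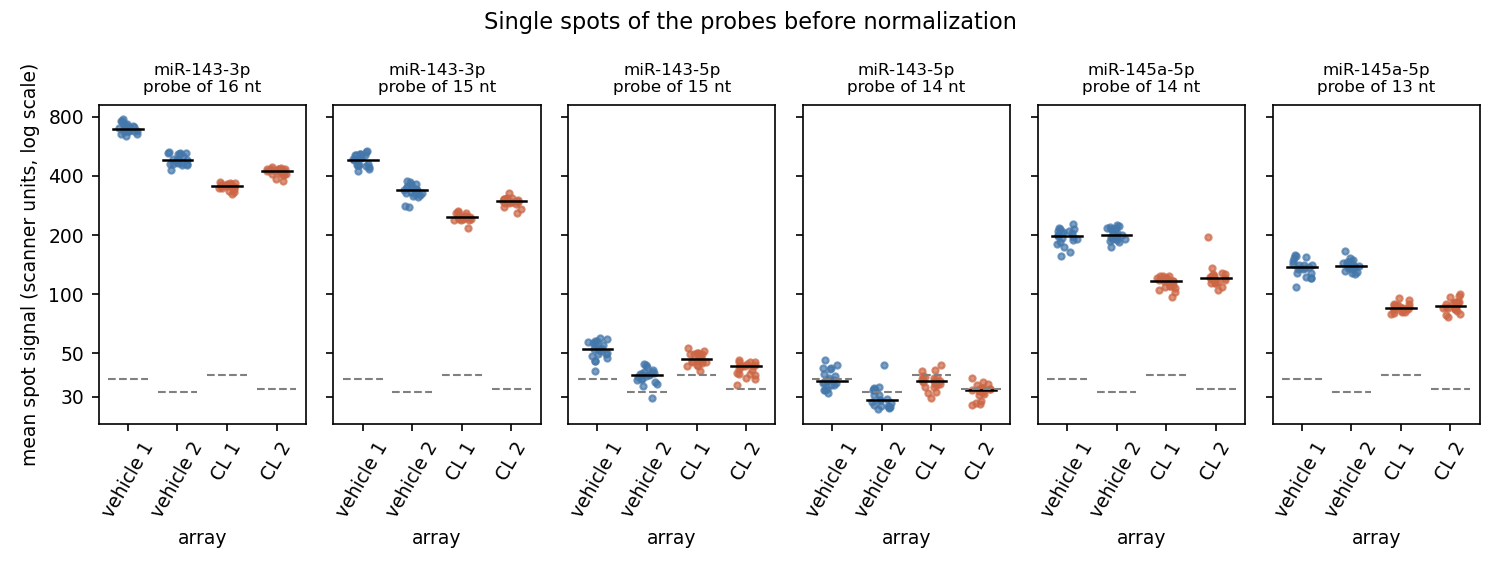
Mean spot signal in scanner units (y axis, log scale) of each spot of the probes for miR-143-3p, miR-143-5p and miR-145a-5p on each array (x axis), before normalization. Black lines are medians over 20 spots and grey dashed lines are negative control means. The spots of miR-145a-5p separate the CL from the vehicle arrays, those of miR-143-3p also separate the vehicle arrays from each other, and those of miR-143-5p lie near the controls.

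miR-143-3p, the mature arm through which miR-143 is best known, had a log2 normalized signal of 8.96 and 8.58 on vehicle 1 and 2, and of 8.26 and 8.41 on CL 1 and 2. The CL arrays were again the lowest, but the groups were only 0.17 apart on the log2 scale at their nearest, less than the 0.38 between the vehicle arrays. The means were 8.77 ± 0.27 (SD, n = 2) for vehicle and 8.33 ± 0.10 (SD, n = 2) for CL, a log2 fold change of −0.43 (standard error 0.18, 95% confidence interval −0.91 to 0.04). The unadjusted p from limma was 0.0631 and the adjusted p was 0.158, so that miR-143-3p passed neither threshold. Blocking on the slide column gave an adjusted p of 0.168 in limma. The difference was −0.70 in column 3 and −0.17 in column 4. Leaving out vehicle 1 gave −0.25 and leaving out vehicle 2 gave −0.62, so that its size rested on the vehicle array used. The exact permutation test again gave p = 0.333 (two-sided).

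On the probe of 16 nucleotides for miR-143-3p, the median spot signal was 696.4 and 479.8 for vehicle 1 and 2, and 353.4 and 425.6 for CL 1 and 2. On the probe of 15 nucleotides, the medians were 484.7, 339.2, 247.3 and 296.7 in the same order of arrays. All 40 spots were well above background on every array, and in 39 of them both CL signals lay below both vehicle signals. Vehicle 1 was the brightest and CL 1 the dimmest array on both probes, and both lie in slide column 3.

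The processed log2 values that the authors deposited kept the same order of groups. They list miR-145a-5p at 6.51 and 6.70 in the vehicle arrays and at 5.69 in both CL arrays, a log2 fold change of −0.91 (limma, adjusted p = 0.167). They list miR-143-3p at 8.59 and 8.36 in the vehicle arrays and at 7.80 and 8.02 in the CL arrays, a log2 fold change of −0.56 (limma, adjusted p = 0.195). Neither passed the adjusted threshold on those values.

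Whether miR-145a-5p and miR-143-3p, which leave the same primary transcript, differed to an unequal extent was examined on their difference within each array. The log2 signal of miR-145a-5p minus that of miR-143-3p was −1.85 and −1.32 for vehicle 1 and 2, and −1.84 and −1.97 for CL 1 and 2. The value of vehicle 1 lay between those of the CL arrays, so that the groups overlapped. The means were −1.59 ± 0.37 (SD, n = 2) for vehicle and −1.90 ± 0.09 (SD, n = 2) for CL, a difference of −0.32 (exact permutation test, two-sided p = 0.667). From the scanner totals and from the deposited table the groups did not overlap, with differences of −0.52 and −0.35, and they overlapped under the other normalizations tried. The exact permutation test could not have detected an unequal change of any size, as 2 arrays against 2 allow no p below 0.333. Whether the arms changed unequally is therefore undecided. The absolute size of this difference depends on the probes and says nothing of how much of each miRNA was present.

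The passenger arms carried little signal. miR-143-5p was detected on vehicle 1 and CL 2 and on neither of the other arrays, which left it below the detection filter. Its log2 normalized signal was 4.60 and 4.33 for vehicle 1 and 2, and 4.44 and 4.58 for CL 1 and 2, with CL 1 and CL 2 both between the vehicle arrays. Its probe of 15 nucleotides had 12 of 20 spots well above background on vehicle 1 and 0 on each of the other arrays, with median signals of 52.6, 38.9, 46.6 and 42.9 in the order vehicle 1, vehicle 2, CL 1, CL 2. It was not among the tested miRNAs. Fitted with all 1247 miRNAs and no filter, its difference was 0.05 on the log2 scale (limma, adjusted p = 0.878).

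miR-145a-3p had log2 normalized signals of 4.03, 4.02, 4.13 and 4.02 on vehicle 1, vehicle 2, CL 1 and CL 2, where the median of all 1247 miRNAs was 4.03 to 4.05. None of its 40 spots was well above background on any array, with probe medians of 29.3 to 41.1. The paralogue miR-145b was likewise detected on no array, with probe medians of 29.6 to 39.7.

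The scanner software's total per miRNA treats miR-143-5p in an unusual way. It lists miR-143-5p at 438.8 on vehicle 1 and 259.2 on CL 2, the arrays where it was detected, and at 1.85 and 2.03 on vehicle 2 and CL 1. The totals of miR-143-3p on vehicle 1 and CL 2 were 432.1 and 255.0, so that the totals of miR-143-5p exceeded them by 6.71 and 4.16. Those differences are close to the highest probe total of miR-143-5p itself, 6.71 and 4.16. The deposited log2 table lists miR-143-5p at 2.20 on vehicle 1 and 1.85 on CL 2 and at the lowest value of the array on the other arrays. The scanner totals of miR-143-5p were not used as its level here.

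Against the whole array, the position of miR-145a-5p was well below the middle and that of miR-143-3p less so. The log2 fold changes of the 425 tested miRNAs had a median of −0.01, with quartiles of −0.33 and 0.34 and 5% below −0.91. There were 34 tested miRNAs (8.00%) with a more negative log2 fold change than miR-145a-5p, and 78 (18.4%) with a more negative one than miR-143-3p. Probe length and base composition differ between miRNAs, and those with a longest probe of the same length are given beside both arms. Among the 60 other miRNAs whose longest probe had 14 nucleotides, as for miR-145a-5p, the median log2 fold change was −0.23, with quartiles of −0.49 and −0.01, and 8 were more negative than miR-145a-5p. Among the 41 others with a longest probe of 16 nucleotides, as for miR-143-3p, the median was −0.12, the quartiles were −0.44 and 0.18, and 11 were more negative. The share of C in the longest probe was 14.3% for miR-145a-5p and 25% for miR-143-3p. With each array's linear trend on probe length, C share and G share removed, the log2 fold change was −0.71 for miR-145a-5p (limma, adjusted p = 0.0319) and −0.47 for miR-143-3p (limma, adjusted p = 0.115).

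**Figure D3:**
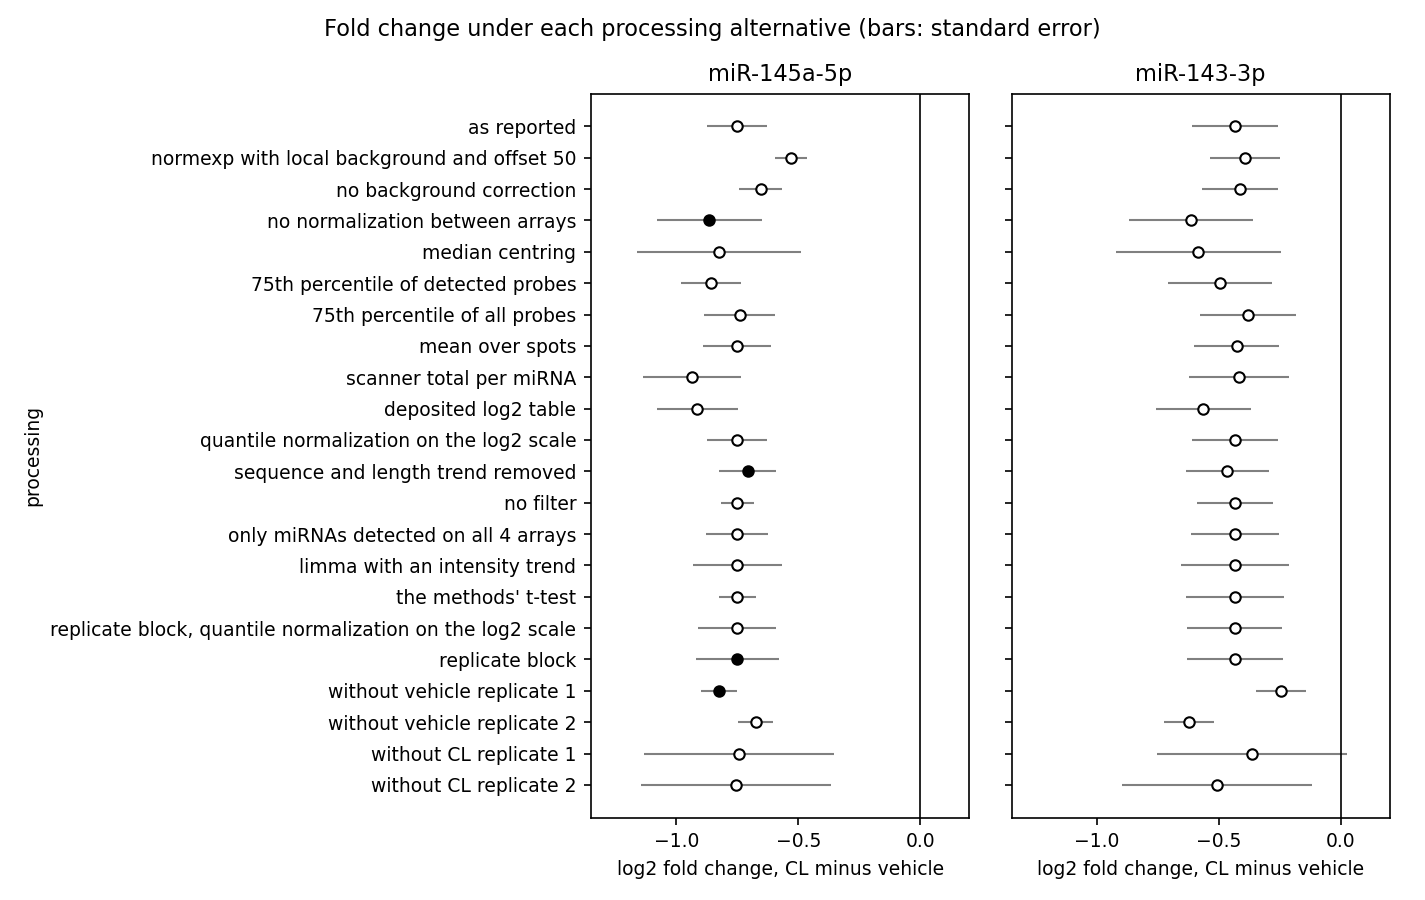
Log2 fold change, CL minus vehicle (x axis), of miR-145a-5p and miR-143-3p under each way of processing or testing the arrays except SAM (y axis), with bars of 1 standard error. Filled points passed an adjusted p of 0.05. Every point is below 0, but settings that change only the test or filter repeat 1 fold change. The points lie between −0.94 and −0.53 for miR-145a-5p and between −0.62 and −0.25 for miR-143-3p.

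Other miRNAs with known roles in smooth muscle phenotype did not move as one. Of the 15 in this list, miR-145b and miR-31-5p were detected on no array and 13 were tested. In limma, 0 of the 13 passed an adjusted p of 0.05, as on the whole array. At the unadjusted threshold 4 were lower and 2 were higher, against 16.2% and 18.8% of all tested miRNAs. With the slide column as a block, limma called 3 lower and 1 higher at the adjusted threshold, against 9.41% and 10.8% of all tested miRNAs. The median log2 fold change of the list was 0.12, beside −0.01 over all tested miRNAs, and single values ran from −1.0 to 1.0.

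The lower members of that list were miR-322-5p, miR-204-5p, miR-10a-5p and miR-24-3p. The log2 signal of miR-322-5p, the mouse counterpart of human miR-424, which restrains smooth muscle proliferation, was 9.98 and 9.89 in the vehicle arrays and 8.76 and 9.12 in the CL arrays. miR-204-5p, another restraint on smooth muscle proliferation, was at 6.35 and 6.63 in the vehicle arrays and at 5.53 and 5.72 in the CL arrays. For miR-10a-5p, which promotes smooth muscle differentiation from stem cells, vehicle values were 9.46 and 9.71 against 8.80 and 9.01 for CL. In each of these 3 the groups were separate. Over the 13 tested members of the list, groups were separate downwards in 5 and upwards in 3. Over all tested miRNAs the shares were 34.8% and 38.1%. The log2 fold changes of these 3 were −1.0, −0.87 and −0.69, with adjusted p of 0.0917, 0.0917 and 0.102 in limma. Those values became 0.0250, 0.0250 and 0.0393 once the slide column was a block. miR-24-3p, which dampens the contractile program, had a log2 fold change of −0.42 (limma, adjusted p = 0.113).

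The higher members were miR-21a-5p and miR-18a-5p. The log2 signal of miR-21a-5p, which promotes growth and survival of injured smooth muscle, was 11.94 and 10.99 in the vehicle arrays and 12.54 and 12.41 in the CL arrays, a log2 fold change of 1.0 (limma, adjusted p = 0.131, 0.0347 with the slide column as a block). Vehicle 1 was nearer to the CL arrays than to vehicle 2, and leaving out vehicle 2 gave 0.53 where leaving out vehicle 1 gave 1.48. miR-18a-5p had a log2 fold change of 0.56 (limma, adjusted p = 0.102). miR-221-3p and miR-222-3p, which drive the synthetic state that miR-145 opposes, had log2 fold changes of −0.13 and 0.17 (adjusted p = 0.443 and 0.348 from limma). The muscle miRNAs miR-1a-3p, miR-133a-3p and miR-133b-3p were at 0.50, 0.31 and 0.34, with CL and vehicle arrays overlapping. miR-26a-5p and miR-146a-5p were at 0.12 and 0.03, also with overlap.

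**Figure D4:**
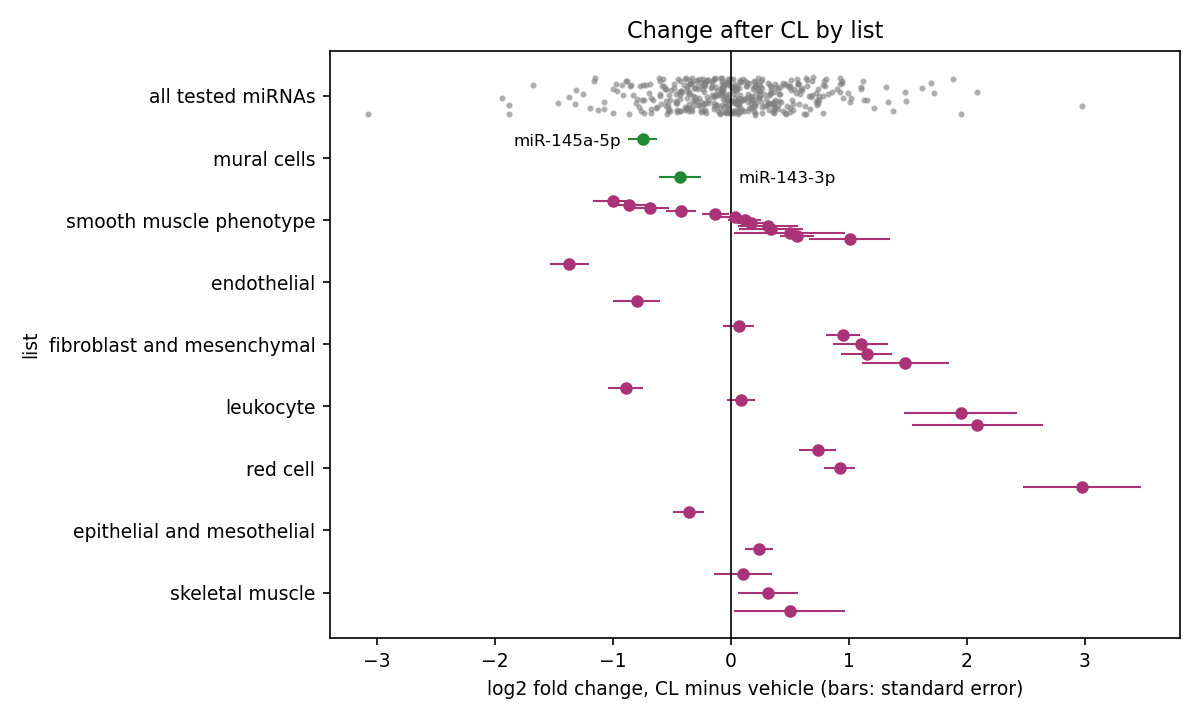
Log2 fold change, CL minus vehicle (x axis), of all 425 tested miRNAs (grey) and of the tested members of each list (y axis), with bars of 1 standard error. miR-145a-5p and miR-143-3p lie at −0.75 and −0.43, on the side of the endothelial list and opposite to most of the fibroblast and mesenchymal list.

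Lists of markers for other cells were examined because nothing was measured per cell type. Of the cells on these lists, fibroblasts are the ones named above as expressing the pair. In limma, 0 members of these lists passed the adjusted threshold without the block, and their counts at the unadjusted threshold stand beside 16.2% lower and 18.8% higher over all tested miRNAs. With the block, limma called 2 of 2 endothelial and 1 of 4 leukocyte members lower, against 9.41% of all tested. It called 4 of 5 fibroblast and mesenchymal, 2 of 4 leukocyte and 3 of 3 red cell members higher, against 10.8%. In the epithelial and mesothelial list and the skeletal muscle list it called 0. Both arms of miR-126, the endothelial list (3p and 5p), were detected on all arrays and were lower at the unadjusted threshold, with log2 fold changes of −1.37 and −0.80. The log2 of their summed signals was 13.80 to 13.92 in the vehicle arrays and 12.33 to 12.66 in the CL arrays. For this and the other lists, signals were added on the linear scale, so the sum leans on the brightest members. The members of the fibroblast and mesenchymal list, with the miR-199 and miR-214 arms, went the other way, with 4 of 5 higher at the unadjusted threshold, none lower, and a median log2 fold change of 1.1. The log2 of their summed signals was 10.99 to 11.74 in the vehicle and 12.60 to 12.63 in the CL arrays. The summed signals of both lists were separate between the groups. So were those of the leukocyte, red cell, and epithelial and mesothelial lists below, but not those of the skeletal muscle list. Among single tested miRNAs, the groups were separate in either direction for 72.9%. The part of both lists in the values of miR-145a-5p and miR-143-3p was not tested.

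Of the leukocyte list, 2 of 4 were higher and 1 was lower at the unadjusted threshold, against 18.8% and 16.2% of all tested miRNAs. The log2 of the list's summed signals was 10.75 to 11.17 in the vehicle and 11.70 to 11.73 in the CL arrays. All 3 red cell miRNAs were higher at the unadjusted threshold, against 18.8% of all tested. The log2 of their summed signals was 13.00 to 13.22 in the vehicle and 13.80 to 14.05 in the CL arrays. Of the 7 epithelial and mesothelial miRNAs, 5 were detected on no array, among them miR-200a-3p, miR-200c-3p, miR-141-3p and miR-429-3p. The 2 tested went opposite ways, with log2 fold changes of −0.36 for miR-203-3p and 0.24 for miR-200b-3p. Only miR-203-3p passed the unadjusted threshold, against 16.2% lower over all tested. The log2 of the summed signals of these 2 was 6.29 to 6.41 in the vehicle and 6.14 to 6.19 in the CL arrays. The skeletal muscle list had no member past the unadjusted threshold. The log2 of its summed signals was 7.17 to 8.15 in the vehicle and 7.92 to 8.11 in the CL arrays. The mural list holds only the members themselves, so its value restates the 2 tested arms. The log2 of their summed signals was 9.07 to 9.31 in the vehicle and 8.62 to 8.73 in the CL arrays. The part of the leukocyte, red cell, epithelial and mesothelial, and skeletal muscle lists in the values of miR-145a-5p and miR-143-3p was not tested.

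The miRNAs whose pattern over the 4 arrays was most like that of each arm were found by the root mean square difference of log2 signals, once the mean of each miRNA over the arrays had been subtracted. For miR-145a-5p the nearest were miR-10a-5p, miR-23b-3p, miR-1892, miR-151-5p and miR-204-5p, with differences of 0.09, 0.10, 0.10, 0.10 and 0.10. Each had a log2 fold change between −0.87 and −0.59. For miR-143-3p the nearest were miR-503-5p, miR-27b-3p, miR-450a-5p, miR-30a-5p and miR-467a-3p, with differences of 0.03, 0.08, 0.09, 0.10 and 0.12. Each of those was highest on vehicle 1, and their log2 fold changes lay between −0.60 and −0.30. Between miR-145a-5p and miR-143-3p the difference was 0.25, and 66 miRNAs were nearer to miR-143-3p and 96 nearer to miR-145a-5p than the other arm of the cluster was. With 4 arrays, such likeness describes these arrays only.

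**Figure D5:**
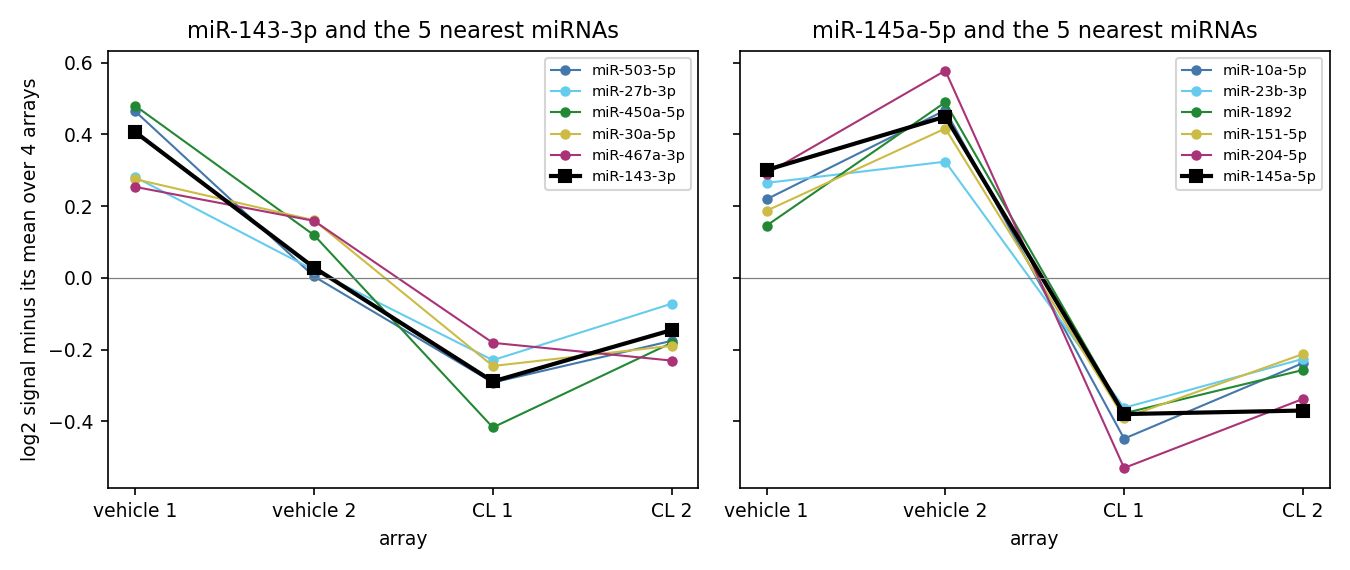
Log2 signal minus its mean over the 4 arrays (y axis) on each array (x axis) for miR-143-3p and miR-145a-5p in black and for the 5 miRNAs nearest to each in colour. The lines join separate arrays and show no course in time. miR-143-3p and its neighbours peak on vehicle 1, while miR-145a-5p and its neighbours peak on vehicle 2.

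Of the 27 other miRNAs on the array that RefSeq places on chromosome 18 alone, 7 were tested, with 5 below 0, 2 above and a median log2 fold change of −0.23. miR-378a-3p, which is encoded within the gene of the mitochondrial coactivator PGC-1β, had a log2 fold change of −0.23 (limma, adjusted p = 0.217), and miR-378a-5p had −0.02. The lowest value was −1.20 for miR-5107-5p (limma, adjusted p = 0.0917) and the highest was 0.37 for miR-1949 (limma, adjusted p = 0.120).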

How the data were processed

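Grouping followed the sample titles, with 2 vehicle and 2 CL arrays of one colour. The authors deposited scanner output (Feature Extraction 10.7.1.1) with an intensity on a linear scale for each spot, and a table of processed log2 values, whose normalization is not stated in full. Following the robust multi-array analysis that the methods name, the deposited intensity values (mean spot signal) were corrected with the normexp model of limma 3.58.1 in R 4.3.3, fitted on all spots without local background. Control spots and outlier spots were then left out, quantile normalization was applied to the linear values, and the spots of a miRNA were combined on the log2 scale by median polish. A miRNA detected by the scanner software on both arrays of at least 1 group was tested by a two-sided moderated test in limma (lmFit, eBayes), adjusted by Benjamini-Hochberg over all 425. The methods also name SAM, which was rebuilt here as an alternative. Quantile normalization assumes a like overall distribution of signals in both groups. The script was tested on simulated data.

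Both groups carry the replicate numbers 1 and 2. The deviations of same-numbered arrays from the mean of their group correlated at 0.12 over the tested miRNAs, and no source says that the numbers pair the pools, so the main fit has no block. The number goes with the slide column, and the fit with it as a block is given beside the results.

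The members, the lists of smooth muscle, fibroblast and mesenchymal, endothelial, leukocyte, red cell, epithelial and mesothelial, skeletal muscle and mural cell miRNAs, and the tests were chosen with earlier results of these data known. The text names the 4 members, measured names of these lists, the 5 miRNAs nearest in pattern to each tested member and, chosen after their values were seen, 4 miRNAs of chromosome 18. The alternatives were other background corrections, normalizations, summaries, filters and tests, the deposited table, removal of a trend on probe length and base shares, the block, and each array left out. Quantile normalization on the log2 scale was added after seeing the data.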

Additional observations from a re-analysis of the deposited data

How the results depend on the processing

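miR-145a-5p and miR-143-3p were lower after CL treatment under every alternative that recomputed the signals. Those that changed only the test, the filter or the block kept the fold change by construction, and with groups that did not overlap the sign could not turn when 1 array was left out. For miR-145a-5p the adjusted p of 0.0917 from limma crossed 0.05 without normalization between arrays (log2 fold change −0.87), once a trend on probe length and base shares was removed (−0.71) and with the replicate number, which is also the slide column, as a block (−0.75). The block changed no other call of a member. With the block the adjusted p of miR-145a-5p was 0.0330, though its unadjusted p in limma rose from 0.00262 to 0.00396. With the same block the adjusted p was 0.0501 when the quantile normalization was made on the log2 scale, a setting chosen after seeing the data. With each array left out, the log2 fold change of miR-145a-5p was between −0.82 and −0.68, and its adjusted p was 0.00870 without vehicle 1 and 0.0534 to 0.362 without the others. The log2 fold change of miR-143-3p was between −0.62 and −0.25, and its adjusted p passed 0.05 under no alternative. Its unadjusted p in limma did pass, at 0.0334 without normalization between arrays and at 0.0394 once the probe trend was removed.

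Over all tested miRNAs, calls at an adjusted p of 0.05 in limma went from 0 to 64 if arrays were not normalized, to 44 after median centring, to 27 from scanner totals, to 7 from the deposited table, to 31 once the probe trend was removed, to 2 if limma modelled an intensity trend, and to 86 with the block, or 40 with the block after quantile normalization on the log2 scale. Leaving out 1 array gave between 1 call (vehicle 2 left out) and 229 (vehicle 1 left out), the lone array being assumed to vary like the other group. The median of the smooth muscle list, 0.12 as reported, moved by less than the spread between arrays (0.19) under every alternative it was computed for. Its sign was not stable, as the median ran from −0.06 with vehicle 2 left out to 0.25 with scaling to the 75th percentile of all probes. miR-143-5p and miR-145a-3p, which fell below the detection filter, were fitted only without it.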
